A study of Mus musculus with 24 samples.

Results

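The 117 genes described here were higher 30 min after anti-CD3 in double-positive (DP) thymocytes and lie outside the gene families usually named for early T cell receptor responses. They were chosen from 18193 genes, each represented by 1 probe set of an Affymetrix Mouse430_2 array. The rule took the log2 signal on anti-CD3 minus that without it in each of 12 mice and kept genes with a mean of at least 0.4 that were above 0 in at least 11 mice. It kept 158 genes (0.868% of all), of which 41 were classed as classic and left out. These 41 cover families such as Egr, Fos, Jun, Nr4a, Dusp, Ier and Bcl. They also hold genes outside these families, such as Gata3, Hspa5, Dnajb1, Cd24a and Nabp1. Because the anti-CD3 change chose the 117 members, that change is given as a description with no test. Comparisons between genotypes were not used by the rule and are tested.

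DP cells, which carry both CD4 and CD8, were sorted from the thymus of 12 male mice on a Black 6J background, all 8 weeks old. There were 3 mice each of ElkSapKO (both genes knocked out), ElkKO, SapKO and wild type (WT). Cells of each mouse rested for 2 h at 37°C and were then placed for 30 min in wells that carried anti-CD3 or nothing, which gave 24 arrays in 8 groups of 3. The labels describe whole-animal genotypes and do not give the alleles, the number of founder lines or the cells in which each gene is lost. Precision is limited by having 3 arrays in a group.

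Anti-CD3 binds the signalling chains of the T cell receptor. Receptor engagement releases calcium through inositol trisphosphate, activates ERK kinases and NF-kB, and within minutes starts transcription of genes that need no new protein. Sap (read here as Elk4, also called SAP-1) and Elk (read as Elk1) belong to the ternary complex factors, a branch of the ETS family that sits beside serum response factor at CArG boxes and is activated by ERK. In DP thymocytes the strength of the receptor signal sets whether a cell matures, dies or is ignored, and inhibitors, surface receptors and calcium regulators shape that signal.

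All 9 measured DP markers, among them Cd4, Cd8a, Rag1 and Ptcra, lay above the signal of Xist, a transcript that male cells lack and whose highest value, 5.07, marks background here. Among markers of B cells, macrophages and stroma, Cd79b, Lyz2, Csf1r, Epcam and Krt5 also had means above it. The mean level of the 4 measured B cell markers was 5.44 to 5.86 in SapKO after anti-CD3, against 5.09 to 5.32 in WT. Untreated it was 5.63 to 5.86 in SapKO, against 5.01 to 5.28 in WT. In ElkSapKO it was 5.01 to 5.55 after anti-CD3 and 4.91 to 5.95 untreated. In ElkKO it was 4.75 to 5.42 after anti-CD3 and 4.84 to 5.14 untreated. Both genotypes overlapped WT in each state. Elk4 read 6.13 to 7.85 in the 12 ElkSapKO and SapKO arrays, against 10.25 to 10.99 in the 12 ElkKO and WT arrays. Elk1 read 4.03 to 5.23 in all 24 arrays, close to background, so it checks the Elk label weakly. The 3′ minus 5′ signal of Actb, a measure of RNA integrity, was 0.545 to 1.05 in ElkSapKO, 0.381 to 0.654 in ElkKO, 0.166 to 0.240 in SapKO and 0.151 to 0.359 in WT arrays. One array differed from the rest: untreated ElkSapKO mouse 2 had a relative log expression interquartile range of 0.826 against 0.179 to 0.363 in the other 23. The dap spike-in read 9.52 to 10.7 in all ElkSapKO and ElkKO arrays, SapKO mouse 2 and WT mouse 3, and 6.89 to 7.44 in the remaining 8 arrays. These measures moved with genotype, and their part in the differences below was not tested. Arrays measure RNA per sample, so fewer cells of a type and less RNA per cell cannot be told apart.

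The mean change of the 117 members had a median of 0.61 on the log2 scale, against 1.21 for the 41 classic genes and 0.01 for all 18193 genes. Of the members, 24 had a mean change of at least 1, 35 lay from 0.6 to under 1, and 58 lay under 0.6. All 12 mice were above 0 for 88 members and 11 of 12 mice for 29. For 27 members every anti-CD3 array lay above every untreated array, a separation that 50 of 18193 genes showed (0.275%) and that 23 of the 41 classic genes showed. Averaged over genotypes, limma called 105 members higher, where 1.02% of all genes were called higher; the same arrays chose the members, so nothing is read from this count. RefSeq classed 104 members as protein coding, 9 as long non-coding RNA and 2 as T cell receptor V segments, and 2 were not matched.

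The median change over the members was 0.62, 0.96 and 0.60 in the 3 ElkSapKO mice, 0.40, 0.55 and 0.58 in ElkKO, 0.62, 0.63 and 0.75 in SapKO and 0.37, 0.83 and 0.71 in WT. Each knockout overlapped WT, while the 3 ElkKO mice lay below all ElkSapKO and all SapKO mice. As means, these are 0.73 ± 0.20 in ElkSapKO, 0.51 ± 0.10 in ElkKO, 0.67 ± 0.07 in SapKO and 0.64 ± 0.24 in WT (SD, n = 3 mice each). For the classic genes the means were 1.06 ± 0.16 in ElkSapKO, 1.04 ± 0.36 in ElkKO, 1.41 ± 0.15 in SapKO and 1.34 ± 0.43 in WT. ElkSapKO mouse 2 held the largest change of 12 mice for 47 of the 117 members and the smallest for 18, and its all-gene median was −0.14. Without that mouse, 8 members had a mean under 0.4, the lowest 0.25 for Wsb1, a SOCS-box protein of ubiquitin ligases whose mean over 12 mice was 0.45.

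**Figure D1:**
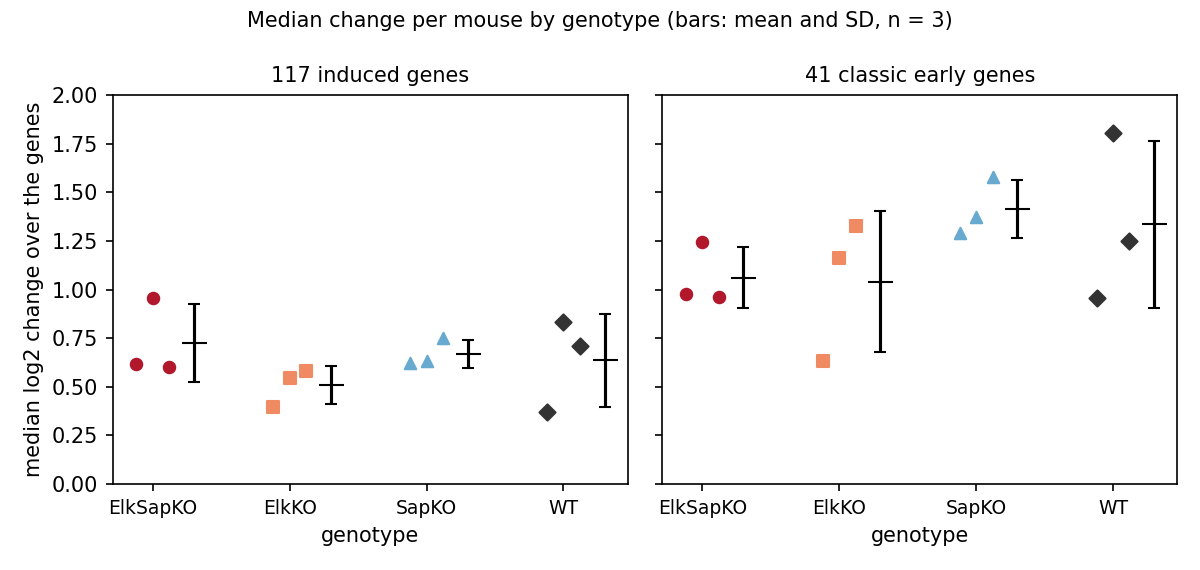
Median log2 change (anti-CD3 minus untreated) over the 117 induced genes (left) and the 41 classic early genes (right), by genotype. Each point is a mouse and bars give the mean and SD of 3 mice; member medians lie between 0.37 and 0.96, with ElkKO below ElkSapKO and SapKO and each knockout overlapping WT, and in the classic panel ElkSapKO lies below SapKO.

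Several members act in the calcium and inositol phosphate arm of receptor signalling. Itpkb, the kinase that converts inositol trisphosphate to its tetrakisphosphate and is needed for thymocyte selection in mice, read 9.60 to 10.72 on anti-CD3 (median 10.34), against 7.43 to 8.98 untreated (median 8.35). Its arrays did not overlap between states, and the mean change was 1.97 ± 0.28 (SD, n = 12), or 3.92-fold. That holds for the probe set used, while the other probe set of Itpkb, at a mean signal of 9.05, changed by 0.09. Itprip, which binds the inositol trisphosphate receptor, read 8.63 to 9.33 on anti-CD3 (median 9.004), against 6.60 to 7.66 untreated (median 7.12). Orai1, the pore subunit of the store-operated calcium channel, read 6.98 to 8.36 on anti-CD3 (median 7.4999), against 5.83 to 6.84 untreated (median 6.43). Both were also fully separated, with mean changes of 1.92 ± 0.31 for Itprip and 1.28 ± 0.53 for Orai1. Kcnq5, a voltage-gated potassium channel subunit, had a mean change of 1.10 ± 0.30 from an untreated mean at background (4.86), so its change is a lower bound.

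Several members are kinases or pseudokinases, while relatives on the list of growth arrest and stress genes, such as Plk2 (0.15), Trib2 (−0.03) and Pim1 (−0.22), were not called. Trib1, a pseudokinase that directs proteins to the COP1 ubiquitin ligase, read 6.78 to 8.05 on anti-CD3 (median 7.39), against 5.23 to 6.43 untreated (median 5.56). Stk17b, a kinase that restrains receptor-driven calcium entry in mouse T cells, was already abundant: it read 11.05 to 11.60 on anti-CD3 (median 11.40), against 8.48 to 10.18 untreated (median 9.86). Plk3, a polo-like kinase of stress responses, had an untreated mean at background (5.05) and a mean change of at least 1.67. In these 3 genes no untreated array reached an anti-CD3 array. Smaller changes were seen for Map3k8, the kinase that links NF-kB precursor p105 to ERK (at least 0.83 ± 0.45), and for Pim3, a survival kinase (0.53 ± 0.22). Cdk5r1, the p35 activator of Cdk5, changed by 0.95 ± 0.29 with no overlap of its arrays between states.

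Transcriptional regulators were also among the members. Per1, a repressor of the circadian clock, read 7.09 to 8.77 on anti-CD3 (median 8.06), against 5.58 to 7.16 untreated (median 6.22). One array of each state overlapped in this gene, and its change ran between 0.59 in ElkKO mouse 1 and 2.52 in WT mouse 2. Phf6, an X-linked PHD finger protein of chromatin, read 8.93 to 9.88 on anti-CD3 (median 9.59), against 7.40 to 8.34 untreated (median 7.69), with no overlap. Crem, the cyclic AMP response element modulator, changed by 1.11 ± 0.70, with 2.67 in ElkSapKO mouse 2 and 0.18 in ElkKO mouse 1. Csrnp1, a nuclear transcriptional activator, changed by 0.63 ± 0.29, Tgif1, a homeobox repressor, by 0.53 ± 0.16, and Arid5a, an RNA-binding protein that protects cytokine transcripts, by 0.53 ± 0.28. Zfp946, a zinc finger protein, changed by 1.54 ± 0.51 and overlapped between states.

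Receptors at the cell surface made up a further set. Gpr171, a G protein-coupled receptor, read 9.94 to 11.03 on anti-CD3 (median 10.52), against 8.47 to 9.72 untreated (median 9.25), and was fully separated. P2ry14, a receptor for UDP-sugars, read 6.60 to 7.79 on anti-CD3 (median 7.46), against 5.79 to 6.64 untreated (median 6.33), with slight overlap. Gpr65, a proton-sensing receptor, had an untreated mean at background (4.35) and a change of at least 1.12. Icos and Ctla4, a costimulatory and an inhibitory receptor of the CD28 family, changed by 0.62 ± 0.52 and 0.54 ± 0.32 and were above 0 in 11 of 12 mice each. Among signalling adaptors, Traf1, which binds TNF receptors, changed by 0.96 ± 0.25 and lay above 0 in all mice. Malt1, the paracaspase that activates NF-kB, changed by 0.52 ± 0.25, Sh2d2a, an adaptor that binds the kinase Lck, by 0.83 ± 0.47, and Sla, an adaptor that lowers receptor levels, by 0.55 ± 0.11.

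Stress and death genes were represented by Ppp1r15a, the phosphatase subunit that restores translation after stress, and by Pmaip1, the BH3-only protein Noxa. Ppp1r15a changed by 1.16 ± 0.76, between −0.45 in ElkKO mouse 1 and 2.87 in ElkKO mouse 2. Over all compared genes, neither of these mice had its best correlation between states with its own number (r = 0.10 and 0.20), and both changes rest on that pairing. With the numbers of ElkKO mice 1 and 2 exchanged between states, the rule gave 118 genes, 116 of them shared. Pmaip1 had an untreated mean at background (4.55) and changed by at least 0.94 ± 0.56. Gem, a small GTP-binding protein that inhibits calcium channels, had both means within the Xist range (4.22 on anti-CD3 and 3.16 untreated), so no fold is given, although its arrays did not overlap. Genes with trafficking or mitochondrial roles included Snx18, a sorting nexin (1.27 ± 0.46), Rilpl2, a Rab-binding protein (1.04 ± 0.40), and Coq10b, a coenzyme Q-binding protein (0.98 ± 0.40). Srfbp1, a serum response factor-binding protein, changed by 1.21 ± 0.48 and Mllt11, a nuclear protein linked to leukaemia fusions, by 1.00 ± 0.24, both without overlap between states.

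The largest mean change of all belonged to a long non-coding RNA, A930024E05Rik. It read 8.79, 8.68 and 8.72 on anti-CD3 in ElkSapKO, 8.56, 8.32 and 8.98 in ElkKO, 9.08, 8.85 and 9.27 in SapKO and 8.79, 9.39 and 8.79 in WT. Untreated arrays read 6.18, 5.10 and 6.50 in ElkSapKO, 6.58, 6.12 and 6.45 in ElkKO, 6.72, 6.52 and 6.66 in SapKO and 7.10, 6.57 and 6.29 in WT. The states were separated in every genotype, by 2.45 ± 0.47 on average (5.47-fold). Gm34006, also a long non-coding RNA, changed by 1.60 ± 0.60. A gene with a clone-like symbol, 1700019D03Rik, had a mean change of 1.85. Its other probe set, at a mean signal of 3.14, gave −0.08. The V segments Trav12n-2 and Trav6-3, which encode parts of the T cell receptor alpha chain, changed by 1.36 ± 0.27 and 1.13 ± 0.32; related V segments can share probes, so which segment was measured is uncertain.

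**Figure D2:**
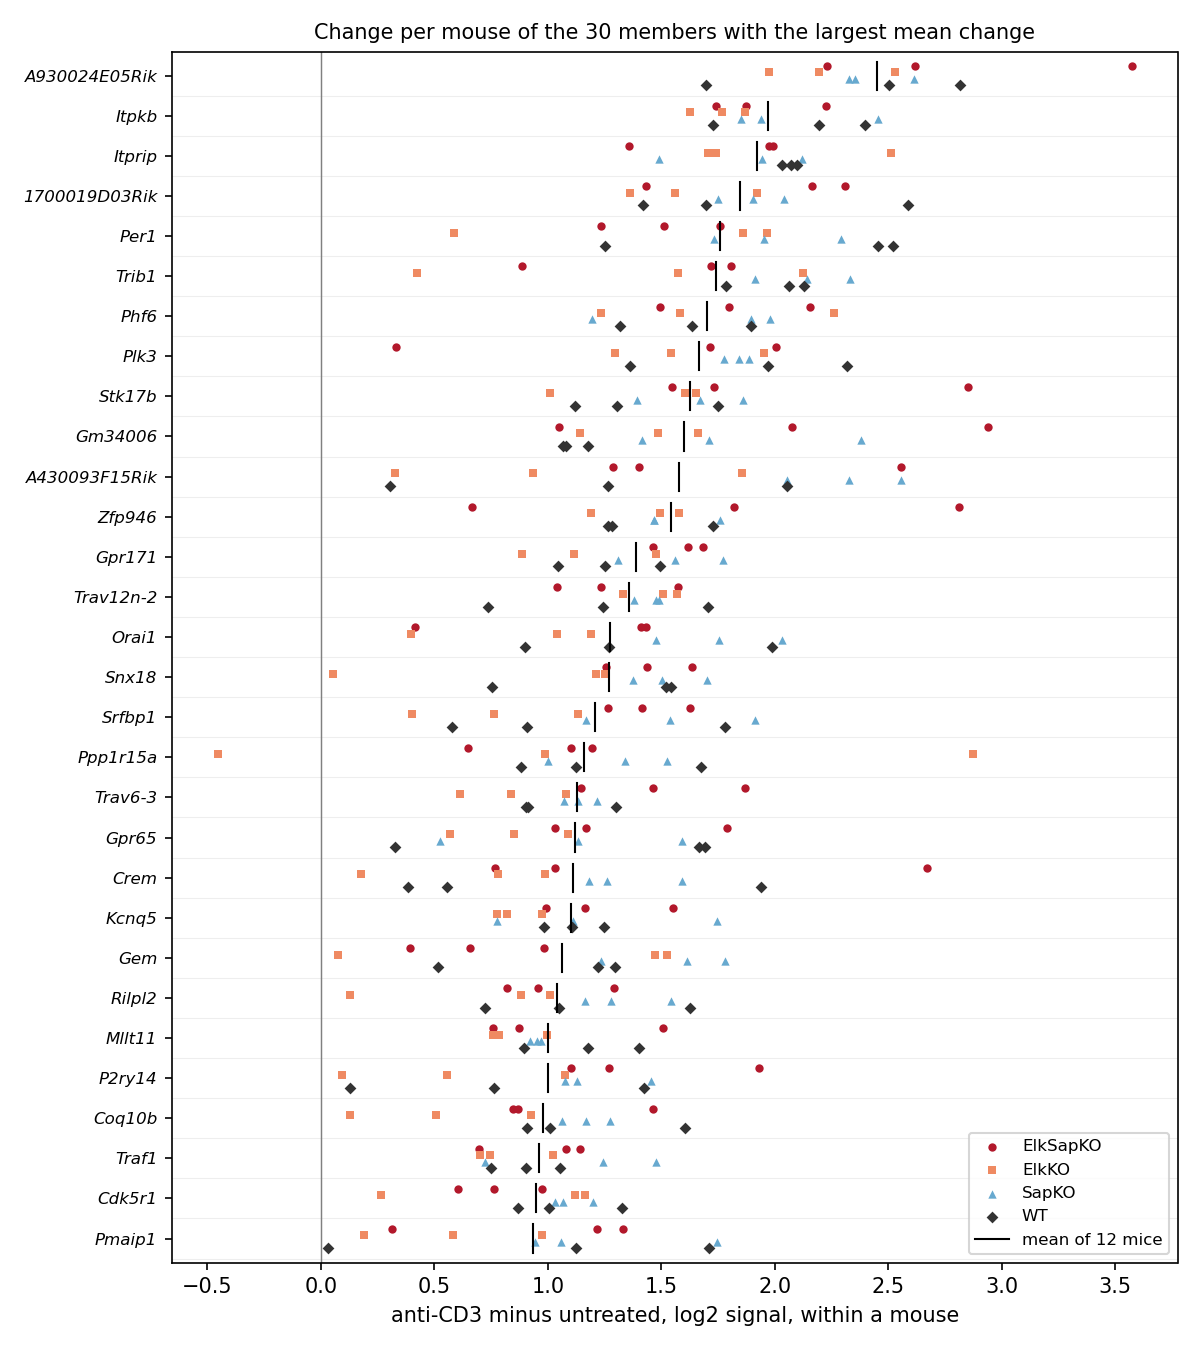
Change (anti-CD3 minus untreated, log2 signal) in each of 12 mice for the 30 members with the largest mean change, with genotypes as colours and shapes and the mean as a black line. Single points stand out in ElkKO mouse 1 for Ppp1r15a (−0.45) and in ElkSapKO mouse 2 for A930024E05Rik (3.57).

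At the threshold itself, the members just inside were Mlx (0.402), Fastkd5 (0.405), Gramd3 (0.408) and a gene with a clone-like symbol (0.408), and the genes just outside were Selenok (0.393), Ppp1r15b (0.385), another with a clone-like symbol (0.383) and Zfp597 (0.382). A further 7 genes passed 0.4 but were above 0 in too few mice. Irf4, a transcription factor induced by receptor signals, had a mean change of 0.64 but was above 0 in 10 mice. Nkrf (0.58, 9 mice), Helz2 (0.50, 10 mice) and Zfp719 (0.48, 9 mice) were others of these.

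The choice of probe set mattered for many members. Of the 117, 56 had 1 probe set and 61 had others. At least 1 other probe set also changed by 0.4 or more in 32 of the 61, and every other one did in 19. In 14 members all other probe sets stayed under 0.2: Itpkb gave 0.09 on its other probe set, Phf6 gave 0.01 and −0.04, and Trib1 gave 0.19. For 16 members another probe set changed more than the one used, among them Stk17b (2.69) and, named after their values were seen, Tespa1 (2.26 against 0.50), an adaptor of thymocyte calcium signalling, and Evi2a (1.85 against 0.80). With probe sets of a gene averaged, the rule gave 105 genes, 92 of them shared. The averaged change was 1.03 for Itpkb, 0.96 for Trib1 and 0.56 for Phf6. Probe sets of a gene can lie on different transcript ends or introns, and their positions were not analysed here.

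**Figure D3:**
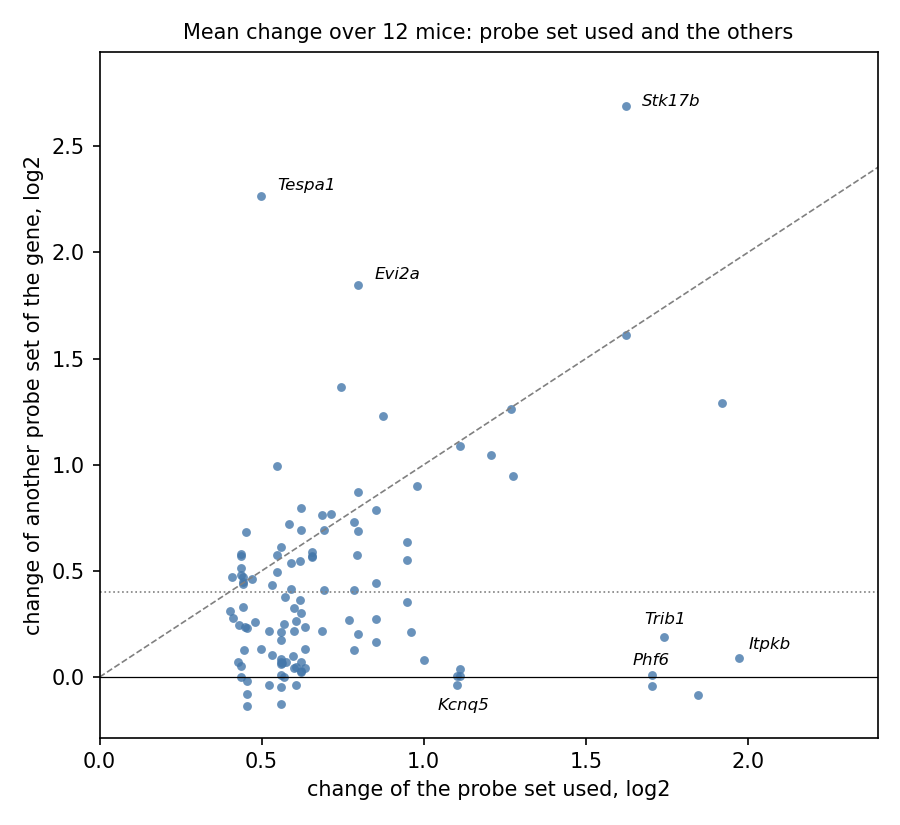
Mean log2 change over 12 mice of each other probe set of a member (vertical axis) against that of the probe set used (horizontal axis); the dashed line marks equal change and the dotted line the threshold of 0.4. Itpkb, Phf6, Trib1 and Kcnq5 lie near 0 on their other probe sets, while Stk17b (2.69), Tespa1 (2.26) and Evi2a (1.85) lie above the line.

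Several members lie beside other induced genes. In the RefSeq gene order, 14 of 113 placed members (12.4%) had another induced gene within 2 places, against 334 of 17820 placed genes (1.87%). Where members were neighbours of each other, both are among the 14, so most pairs are counted from both sides. A930024E05Rik lies 2 places from Orai1 on chromosome 5, Per1 next to Vamp2, a SNARE protein of vesicle fusion (0.57), on chromosome 11, and Gpr171 next to P2ry14 on chromosome 3. Icos and Ctla4 are 2 places apart on chromosome 1. Others flank classic genes: A430093F15Rik, a long non-coding RNA (at least 1.58), is next to Cd5 (1.64) on chromosome 19, and Grasp, a scaffold protein (0.63), and Atg101, an autophagy protein (0.52), flank Nr4a1 (5.15) on chromosome 15. Ado (0.78) is next to Egr2 (6.16) on chromosome 10, and Plk3 lies 2 places from Btbd19 (0.57) on chromosome 4. The neighbours were named because of their place, after their values were seen.

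Differences between genotypes were tested in each state against WT, and most members were lower where they differed. After anti-CD3, 20 of 117 members were called in ElkSapKO against WT (19 lower, 1 higher), where 6.83% of all genes were called and 5.43% called lower (limma, adjusted p under 0.05). In ElkKO the count was 1, where 0.220% of all genes were called, with 30 members at an unadjusted p under 0.05 (11.4% of all genes), and in SapKO it was 0, where 0.0715% were called; 7 members had an unadjusted p under 0.05 in SapKO, where 2.97% of all genes did. Without anti-CD3, 9 members were lower in ElkSapKO, where 3.44% of all genes were called and 2.69% called lower. The untreated counts were 0 in ElkKO (0.0989% of all genes) and 0 in SapKO (0.0824%), with 14 members in ElkKO (7.21% of all genes) and 3 in SapKO (1.65%) at an unadjusted p under 0.05 by limma. The mean level of the mature single-positive markers S1pr1, Klf2 and Itgb7, all 3 above the Xist range, moved with the ElkSapKO genotype. After anti-CD3 it was 6.22 to 6.89 in ElkSapKO, against 7.07 to 7.30 in WT, and untreated it was 6.52 to 7.02 in ElkSapKO, against 7.37 to 7.78 in WT. The groups did not overlap, and the part of such cells in the member differences was not tested. Over all 117 members the median difference from WT after anti-CD3 was −0.14 in ElkSapKO, −0.20 in ElkKO and 0.08 in SapKO. Untreated it was −0.30 in ElkSapKO, against 0.03 over all genes.

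Glipr1, a secreted-type CAP-family protein, differed most. After anti-CD3 it read 9.45, 8.98 and 8.98 in ElkSapKO, 10.10, 9.75 and 10.23 in ElkKO, 9.59, 9.51 and 9.25 in SapKO and 10.75, 10.996 and 10.18 in WT. Without anti-CD3 it read 8.92, 8.13 and 7.68 in ElkSapKO, 9.13, 9.43 and 9.08 in ElkKO, 8.87, 9.02 and 8.56 in SapKO and 10.14, 9.96 and 9.89 in WT. In both states all ElkSapKO and all SapKO arrays lay below all WT arrays. All ElkKO arrays also lay below all WT arrays untreated, and they overlapped WT after anti-CD3. Glipr1 was not called in ElkKO in either state. The ElkSapKO difference from WT was −1.51 ± 0.24 after anti-CD3 (adjusted p = 0.00225, limma) and −1.75 ± 0.24 untreated (adjusted p = 0.000597). In SapKO it was −1.19 (adjusted p = 0.0660, limma) and −1.18 (adjusted p = 0.0947), which missed the threshold. Averaging its probe sets gave smaller ElkSapKO differences of −1.21 after anti-CD3 and −0.96 untreated, and with the 6 compared arrays alone the untreated call was lost (adjusted p = 0.44, limma; 5.16e-05 to 0.44 over the alternatives).

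Myl6, the essential light chain of non-muscle and smooth muscle myosin, was the member called in both Elk genotypes. After anti-CD3 it read 7.46, 7.19 and 7.54 in ElkSapKO, 7.18, 7.20 and 7.46 in ElkKO, 8.28, 8.15 and 8.34 in SapKO and 8.35, 8.57 and 8.08 in WT. Every ElkSapKO and ElkKO array lay below every SapKO and WT array. The difference from WT was −0.93 ± 0.16 in ElkSapKO (adjusted p = 0.00295, limma) and −1.05 ± 0.16 in ElkKO (adjusted p = 0.00582). Without the stimulated array of ElkKO mouse 2, the ElkKO call was lost (adjusted p = 0.0602, limma; 0.00147 to 0.0602 over the 24 arrays left out in turn).

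Per1 had a like order of genotypes. After anti-CD3 it read 7.09, 7.48 and 7.54 in ElkSapKO, 7.32, 7.85 and 7.55 in ElkKO, 8.27, 8.35 and 8.49 in SapKO and 8.41, 8.77 and 8.62 in WT. ElkSapKO and ElkKO arrays all lay below SapKO and WT arrays. The ElkSapKO difference was −1.23 ± 0.26 (adjusted p = 0.0100, limma), and the call was lost when stimulated ElkSapKO mouse 1 was left out (adjusted p = 0.079; 0.00273 to 0.079 over the arrays left out). The ElkKO difference, −1.03 ± 0.26, missed the threshold (adjusted p = 0.0991, limma).

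Other members lower in ElkSapKO had roles in protein turnover, adaptor signalling and transcription. Siah2, a RING ubiquitin ligase, read 6.10, 6.33 and 6.50 after anti-CD3 in ElkSapKO, against 7.68, 7.62 and 7.29 in WT, and fell by 1.22 ± 0.22 (adjusted p = 0.00371, limma). Midn, a nuclear protein that brings substrates to the proteasome, read 7.43, 7.75 and 7.52 in ElkSapKO, against 8.37, 8.44 and 8.65 in WT, and fell by 0.92 ± 0.18 (adjusted p = 0.00591, limma). Traf4, a TNF receptor-associated adaptor, read 6.98, 7.37 and 7.66 in ElkSapKO, against 8.32, 8.31 and 8.17 in WT, and fell by 0.93 ± 0.17 (adjusted p = 0.00459, limma). ElkKO arrays lay between those of ElkSapKO and WT for Siah2 and Midn and overlapped ElkSapKO for Traf4, and none of the 3 was called in ElkKO. In SapKO the differences from WT were −0.10 for Siah2, −0.14 for Midn and −0.16 for Traf4. Tgif1 read 7.75, 7.64 and 7.59 in ElkSapKO, against 8.65, 8.51 and 8.14 in WT, and fell by 0.77 ± 0.16 (adjusted p = 0.00798, limma). Kbtbd2, a substrate adaptor of CUL3 ubiquitin ligases, read 9.84, 9.82 and 9.87 in ElkSapKO, against 10.35, 10.43 and 10.27 in WT, and fell by 0.51 ± 0.11 (adjusted p = 0.0101, limma), a call lost without the stimulated array of ElkSapKO mouse 1 (adjusted p = 0.0524). Traf1 was the member higher in ElkSapKO: it read 8.30, 7.60 and 7.17, against 6.80, 6.86 and 6.58 in WT, a difference of 0.94 ± 0.29 (adjusted p = 0.0494, limma) that was not called without 17 of the 24 arrays left out singly. With its probe sets averaged the Traf1 difference was 0.25 (adjusted p = 0.523, limma), and with array medians set equal it was 0.90 (adjusted p = 0.0549).

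**Figure D4:**
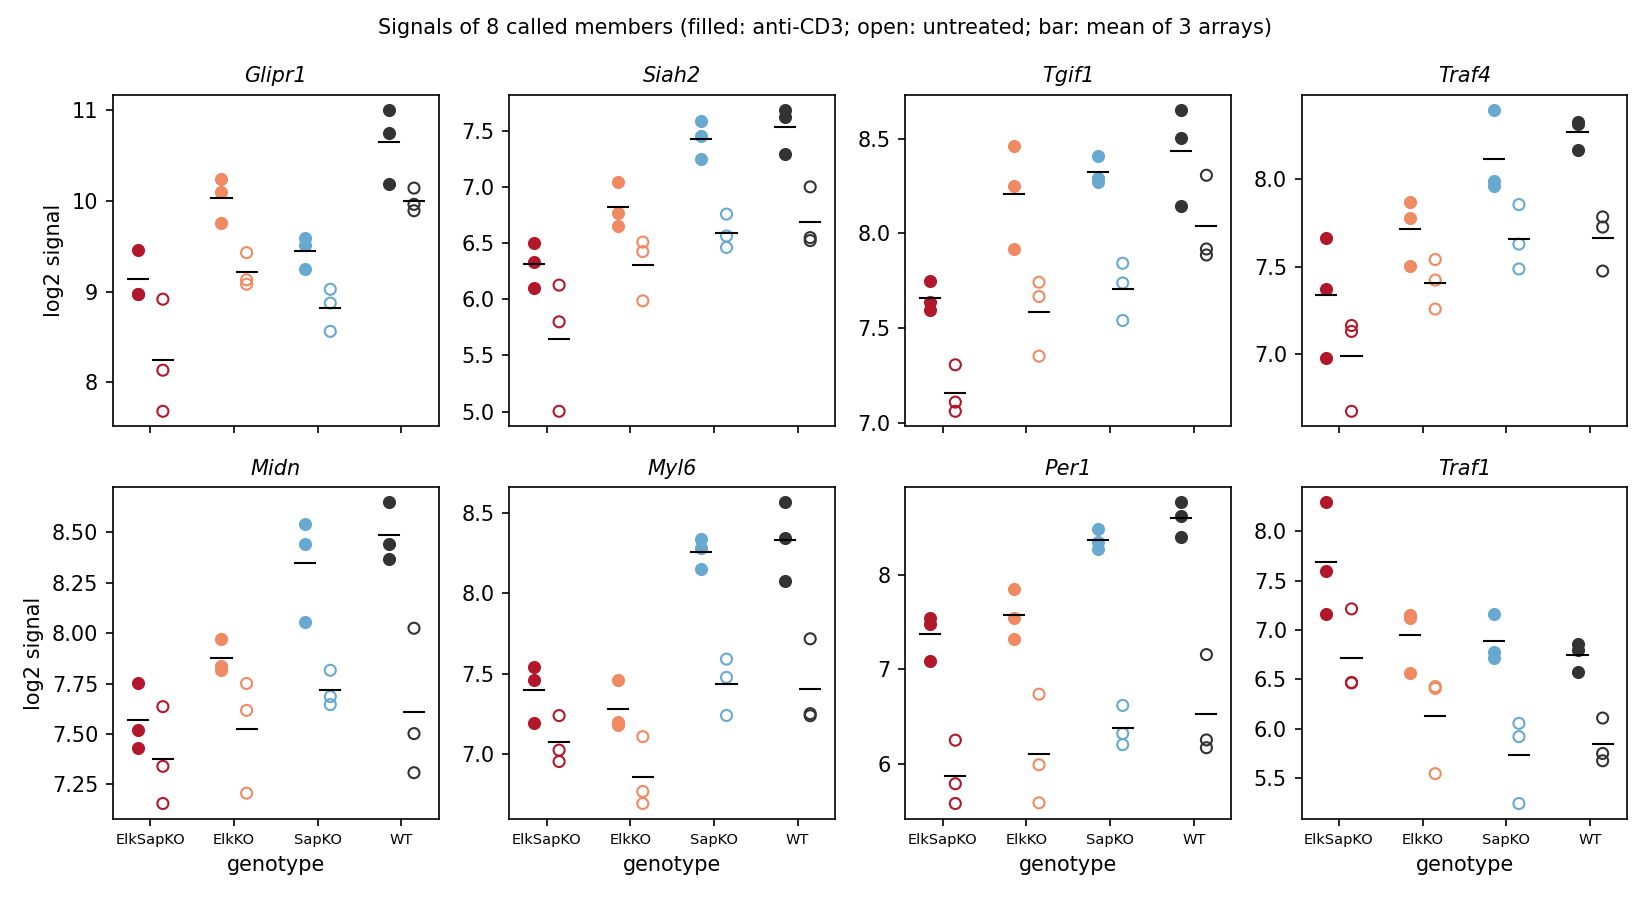
Log2 signals of 8 members called after anti-CD3, by genotype, with anti-CD3 arrays filled, untreated arrays open and bars at the mean of 3 arrays. The ElkSapKO arrays lie below the WT arrays in 7 genes and above them in Traf1, and Myl6 and Per1 are also low in ElkKO.

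The other members called after anti-CD3 in ElkSapKO were Arid5a (−0.81), Sh2d2a (−0.92), Yrdc, a tRNA-modifying enzyme (−0.59), Zmynd8, a chromatin reader (−0.52), and Gimap6, a lymphocyte GTPase (−0.51), and, named after their values were seen, Vamp2 (−1.08), Atg101 (−0.66), Isca1 (−0.42), Cbx8 (−0.66), Trp53inp2 (−0.73) and Sertad1 (−0.69). Untreated, the 9 lower members besides Glipr1 were Siah2 (−1.05), Tgif1 (−0.88), Gpr171 (−0.78), Traf4 (−0.67), Cbx8 (−0.66), Gimap6 (−0.61), Zmynd8 (−0.57) and Yrdc (−0.51). Glipr1, Myl6, Siah2, Traf4, Midn and Tgif1 were called after anti-CD3 whichever array was left out, and Glipr1 was the one such member untreated. The stimulated ElkSapKO count of 20 became 6 (0.929% of all genes) and 12 (2.04%) without the stimulated arrays of ElkSapKO mice 1 and 2, 11 (2.23%) without that of WT mouse 2, and 32 (12.9%) when untreated ElkSapKO mouse 2 was left out. The untreated count of 9 became 1 (0.352% of all genes) and 5 (0.901%) without WT mice 1 and 2, and 0 (0.011%) with the 6 compared arrays alone. It became 33 without ElkSapKO mouse 3, where 27.1% of all genes were called, a share close to that of the members. Without both arrays of ElkSapKO mouse 2, a choice made after seeing the data, 23 members were called after anti-CD3 (7.17% of all genes) and 8 untreated (3.52%). With probe sets averaged, the stimulated differences of Zmynd8 (−0.085, adjusted p = 0.767, limma) and Gimap6 (−0.16, adjusted p = 0.539) were not called, and untreated Gimap6 (−0.29, adjusted p = 0.169) and Zmynd8 were not either.

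No member's anti-CD3 change passed the test for a difference between genotypes. The rule limits this test among members, since it left out any gene above 0 in fewer than 11 of the 12 mice. By limma, 0 of 117 members and 0 of all genes (0%) passed the threshold in each of 5 differences of response: ElkSapKO, ElkKO and SapKO against WT, and loss of Sap or of Elk over 12 mice. At an unadjusted p under 0.05 there were 4 members for ElkSapKO (5.4% of all genes), 2 for ElkKO (0.907%), 2 for SapKO (0.786%), 7 for loss of Sap (2.04%) and 8 for loss of Elk (1.65%). The smallest adjusted p of a member was 0.703, in ElkSapKO. The next 3 differences were picked after seeing their values, for intervals that exclude 0, and the intervals are not adjusted for the number of genes. All intervals here come from the fit on 8 group means, which does not use the pairing of arrays by mouse. The changes of Midn averaged 0.68 lower in ElkSapKO than in WT, with a 95% interval of −1.21 to −0.16. For Myl6 the loss of Elk gave −0.50 (−0.83 to −0.17), and for P2ry14 the loss of Sap gave 0.65 (0.25 to 1.06). The 95% intervals reached a median of 0.63 to either side of the estimate for a knockout against WT and 0.44 for the 12-mouse contrasts, so differences of the size of most members' whole change (median 0.61) could go uncalled.

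Most members belonged to none of 12 functional lists. These lists held 333 genes, of which 308 were measured, and 24 members were on a list and 93 on none. On average over genotypes, 6 of 52 other inducible transcription factors, 4 of 27 growth arrest and stress genes, 4 of 18 TNF receptor and NF-kB adaptors and 3 of 30 RNA processing genes were called higher, where 1.02% of all genes were, and no listed gene was called lower. Most of these are members, chosen on the same change, so nothing is read from the counts. A further 2 genes each came from 29 surface receptors and ligands, 27 phosphatases and kinases, 25 regulators of G proteins and 21 ubiquitin genes. Of the RNA processing genes these were Tob2, which recruits deadenylases (0.85), Pnrc1, a nuclear receptor coactivator (0.56), and Clk1, a splicing kinase (0.50). Among 19 targets of serum response factor with myocardin-related factors, 1 was called, Filip1l (0.41), whose 2 means lay within the Xist range. None of 16 Klf factors and none of 21 chromatin modifiers was called by limma. The median change over the lists ran between −0.03 and 0.06, against 0.01 for all genes.

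Promoters were searched because the knocked-out factors are ETS proteins that act with serum response factor on CArG boxes. RefSeq promoters of GRCm38.p6, 250 bases before to 50 after a start, were matched for 84 of 117 members, 30 of 41 classic genes and 14368 tested genes, and both strands were read. A CArG box (CC, 6 letters A or T, GG) was found in 5 members (5.95%), in 13.3% of classic genes and in 1.59% of tested genes. The ETS core CCGGAAG was found in 12 members (14.3%), in 13.3% of classic genes and in 15.03% of tested genes. The full cAMP response element TGACGTCA was found in 7 members (8.33%), in 10.0% of classic genes and in 2.94% of tested genes, and its shorter form TGACG, which the full one contains, in 42.9%, 63.3% and 30.0%. GGAAAA, the core bound by NFAT, was found in 39.3% of members, 20% of classic genes and 24.3% of tested genes. The Egr motif GCGNGGGCG was found in 5.95%, 30.0% and 10.1%, the NF-kB motif in 3.57%, 23.3% and 6.08%, AP-1 (TGANTCA) in 4.76%, 13.3% and 7.5%, the E box CACGTG in 16.7%, 16.7% and 10.3%, and a TATA box (TATAA, then A or T) in 16.7%, 26.7% and 14.6%. A match is a description and no evidence of binding, and no more is read from these shares.

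**Figure D5:**
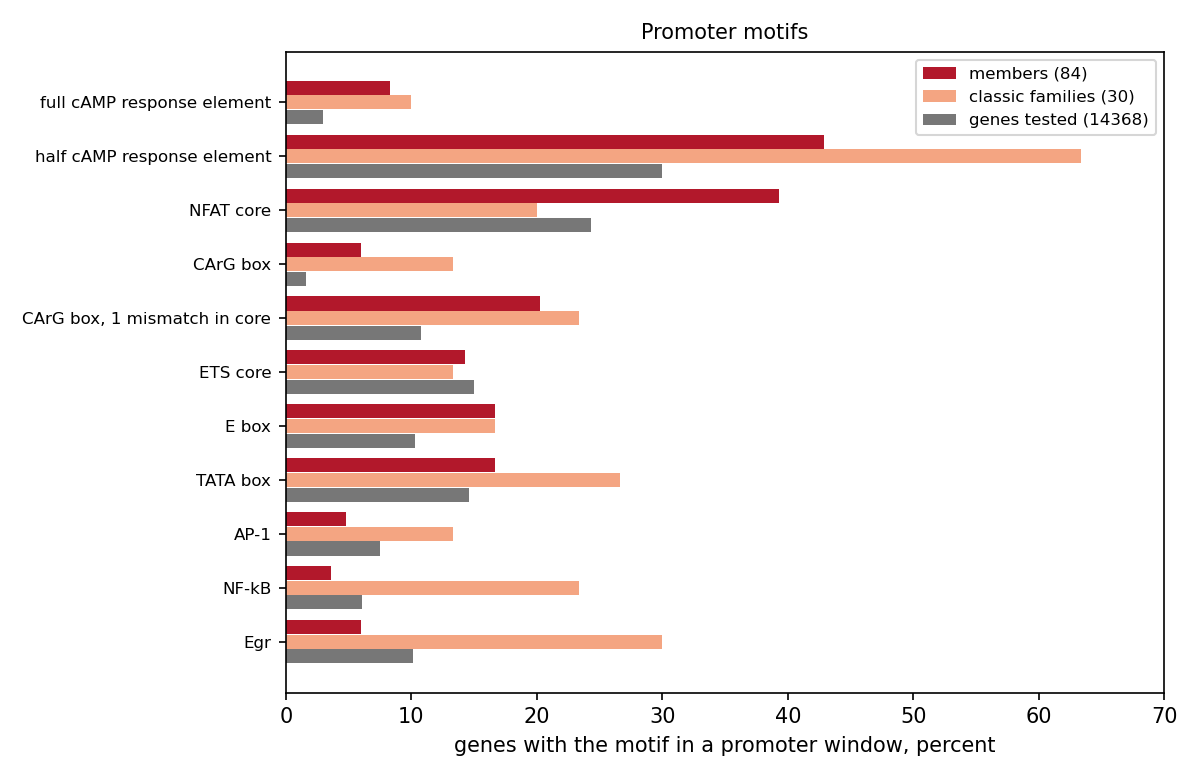
Percent of genes with each motif in a promoter window of 300 bases, for 84 members, 30 classic genes and 14368 tested genes. Members lie above tested genes for the full cAMP response element (8.33% against 2.94%), the NFAT core (39.3% against 24.3%) and the CArG box (5.95% against 1.59%), and below them for the Egr motif (5.95% against 10.1%).

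The CArG boxes of members, in capitals, are shown because they are the site type of the knocked-out factors, each with up to 24 flanking bases before the start; that of Gpr183 lies after its start and is not printed.
Myl6, chr10:128493026-128493083, minus strand: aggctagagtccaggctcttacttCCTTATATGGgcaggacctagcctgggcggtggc
Filip1l, chr16:57549156-57549213, plus strand: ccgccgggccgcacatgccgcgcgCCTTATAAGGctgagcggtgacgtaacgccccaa
Mideas, chr12:84194090-84194147, minus strand: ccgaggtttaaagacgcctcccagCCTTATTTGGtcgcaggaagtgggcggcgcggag
Vamp1, chr6:125215331-125215385, plus strand: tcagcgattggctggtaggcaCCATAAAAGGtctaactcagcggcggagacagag
The box of Myl6 begins 50 bases before the start. Of the 5 members with a box, 1, Myl6, was lower in ElkSapKO after anti-CD3, against 14 of the 79 without one. Over all tested genes, 22 of 229 with a box (9.61%) were lower, against 804 of 14139 without one (5.69%).

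The ETS core was set beside the genotype calls after the values were seen, as a description with no test. Of the 12 members with it, 6 were lower in ElkSapKO after anti-CD3 (Per1, Atg101, Isca1, Yrdc, Zmynd8 and Traf4), against 9 of the 72 members without it. Over all tested genes, 214 of 2159 with the core (9.91%) were lower, against 612 of 12209 without it (5.01%). Without the stimulated array of ElkSapKO mouse 1, only Traf4 of the 6 was still called. Of the 9 without the core, Myl6, Tgif1 and Midn were still called. With probe sets averaged, Isca1 (adjusted p = 0.076, limma) and Zmynd8 (adjusted p = 0.767) were not called. Trp53inp2 and Gimap6, which lack the core, were not called either. Among the 6 lower members with the core, it lies after the start in Zmynd8. For each of the other 5 genes 1 core is printed in capitals, which reads CTTCCGG where it lies on the opposite strand. Atg101 and Yrdc each hold another core, 25 and 4 bases before the start, against 55 and 34 for those printed.
Per1, chr11:69100105-69100151, plus strand: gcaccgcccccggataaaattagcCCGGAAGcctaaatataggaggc
Traf4, chr11:78165557-78165611, minus strand: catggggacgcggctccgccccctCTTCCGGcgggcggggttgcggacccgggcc
Yrdc, chr4:124850701-124850755, plus strand: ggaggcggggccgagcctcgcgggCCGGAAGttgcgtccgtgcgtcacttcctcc
Atg101, chr15:101284222-101284276, plus strand: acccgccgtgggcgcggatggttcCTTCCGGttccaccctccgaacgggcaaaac
Isca1, chr13:59769975-59770029, minus strand: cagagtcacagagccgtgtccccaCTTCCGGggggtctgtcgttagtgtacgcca
The core of Per1 begins 23 bases before the start. Per1 and Zmynd8 also hold a CArG box with 1 mismatch in its core. In Per1 this box lies further from the start than the ETS core, outside the stretch printed above. A box with at most 1 mismatch was found in 20.2% of members and 10.7% of tested genes. These shares include genes with an exact box, among them the 5 members named above.

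The full cAMP response element, the site of Creb and Crem, is shown in the 4 members where it is closest to the start, in capitals.
Ppp1r15a, chr7:45526269-45526304, minus strand: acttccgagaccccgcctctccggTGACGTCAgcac
Ccnl1, chr3:65958250-65958291, minus strand: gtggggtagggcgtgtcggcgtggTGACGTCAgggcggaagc
Myl6, chr10:128493887-128493931, minus strand: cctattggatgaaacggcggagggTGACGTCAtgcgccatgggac
Cbx8, chr11:119040914-119040966, minus strand: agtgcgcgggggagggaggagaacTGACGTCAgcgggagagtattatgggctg
It begins 12 bases before the start in Ppp1r15a, 18 in Ccnl1, a cyclin of splicing kinases, 21 before another start of Myl6 than the one shown with the CArG box, and 29 in Cbx8, a Polycomb protein. Of the 7 members with it, 3 (Trp53inp2, an autophagy protein, Myl6 and Cbx8) were lower in ElkSapKO after anti-CD3, against 12 of the 77 members without it. Over all tested genes, 42 of 422 with it (9.95%) were lower, against 784 of 13946 without it (5.62%). Other motifs ran both ways among members. With the NFAT core 4 of 33 were lower, against 11 of 51 without it. With the E box 3 of 14 were lower, against 12 of 70 without it. These counts are a description with no test. Myl6 was called whichever array was left out. Trp53inp2 was not called without 5 of the 24 arrays left out singly, and Cbx8 without 4.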

How the data were processed

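The deposited values are log2 signals per probe set of Affymetrix Mouse430_2 arrays; the authors normalized them with RMA in affy, per the submitters' processing notes, with versions not given in the sources used here. RMA forces the arrays to a like distribution, so values are relative to each array. The table held 45101 probe sets, 24 arrays, no missing value and 0 value columns of no sample. After 64 control probe sets were left out, 34945 probe sets had 1 gene symbol, 932 had several and 9160 had none; symbols came from GEO's platform annotation and 18032 of 18193 genes matched RefSeq GRCm38.p6. Each gene was represented by its probe set of highest mean.

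Group differences were fitted with limma 3.58.1 in R 4.3.3 on 8 group means (16 residual degrees of freedom, 8 with a mouse block), with Benjamini-Hochberg adjustment over all 18193 genes in each contrast; ± after a genotype difference is the standard error. The fit was tested on simulated data. Python 3.11.15, pandas 2.3.3 and matplotlib 3.10.9 did the rest. The titles carry a number within each genotype, and the anti-CD3 and untreated arrays of a number were taken as one animal. Over 8361 genes their deviations correlated by −0.03 to 0.85 in 12 pairs, 11 of them above 0.1. The correlation was highest for the own number in 9 pairs, but not in ElkSapKO mouse 2 and ElkKO mice 1 and 2.

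Members and lists were chosen with earlier results of these data known. Genes named are the 30 members of largest change, up to 8 members called per contrast, those at the threshold and up to 5 members per list; clone-like symbols are named only among the 10 largest, and other names are said to be chosen later. Alternatives were averaged probe sets, equal array medians, a signal filter at 6, a threshold of 0.5, array weights, a mouse block, only the compared arrays, and each array or mouse left out.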

Additional observations from a re-analysis of the deposited data

How the results depend on the processing

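The rule gave 105 genes with probe sets averaged (92 shared), 111 with array medians set equal (110 shared), 97 with a mean signal of at least 6 and 93 at a threshold of 0.5; leaving out each mouse gave 113 to 126. Leaving out each mouse, the mean of the per-mouse medians ran 0.61 to 0.79 in ElkSapKO, 0.47 to 0.56 in ElkKO, 0.63 to 0.69 in SapKO and 0.54 to 0.77 in WT. With the mouse as a block, 0 members were called in each of the 5 response differences, also with ElkKO numbers 1 and 2 exchanged, and the block changed no call. Leaving out each array gave 0 there too.

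The genotype counts moved most. Untreated in ElkSapKO, 14 members were called with array medians equal (5.79% of all genes), 53 with array weights (32.2%) and 0 with the compared arrays alone (0.011%); in ElkKO these were 13 with weights (5.3%) and 1 alone (0.115%), and in SapKO 1 (0.231%) and 2 (0.192%). After anti-CD3, weights gave 43 in ElkSapKO (21.7%), 21 in ElkKO (5.12%) and 1 in SapKO (0.258%), and the compared arrays alone gave 8 in ElkSapKO (2.28%). Without both arrays of ElkSapKO mouse 2, chosen after seeing the data, 1 was called in untreated ElkKO (0.528% of all genes). There were then 3 in stimulated ElkKO (1.27%) and 1 in stimulated SapKO (0.165%). Leaving out each array gave, untreated, 1 (0.352% of all genes) to 33 (27.1%) in ElkSapKO. It gave 0 to 0 in untreated ElkKO and 0 to 1 in untreated SapKO. After anti-CD3 it gave 6 (0.929%) to 32 (12.9%) in ElkSapKO. In stimulated ElkKO it gave 0 (0.0165%) to 4 (1.45%), and in stimulated SapKO 0 to 1. The stimulated ElkKO count became 0 without stimulated ElkKO mouse 2 and 4 without untreated ElkSapKO mouse 2. It became 2 without untreated ElkKO mouse 3 (0.231% of all genes) or untreated ElkSapKO mouse 3 (0.423%). The SapKO count after anti-CD3 became 1 without stimulated WT mouse 3 (0.055% of all genes). It also became 1 without untreated ElkSapKO mouse 1 (0.0934%), 2 (0.148%) or 3 (0.11%). The untreated SapKO count became 1 without untreated ElkSapKO mouse 1 (0.0879%) or 3 (0.0934%). Averaging probe sets reversed untreated Zmynd8 in ElkSapKO (0.027, adjusted p = 0.89, limma). Where an alternative used fewer arrays the loss of calls comes with fewer degrees of freedom; other causes were not tested. Signals within the Xist range limit 13 members to a lower bound or no fold.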
